A study of Mus musculus with 8 samples.

Results

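Il17rb encodes a chain of the receptor for interleukin-25, and it was examined here with 9 further cytokine receptor genes of the liver: Il17ra, Il17rc, Il1r1, Il1rap, Il6ra, Il6st, Il4ra, Lifr and Tnfrsf1a. A member was the probe set that the platform annotation assigned to that single gene symbol, and the brightest was taken where a gene had several. All 10 genes were found among 22180 genes with such a probe set, and all 10 lay among the 13449 genes bright enough to be tested. Il17rb was chosen by its measured difference, as 1 of 9 genes past an adjusted p of 0.05 between knock-in and wild type liver, so its difference is given as a description and not as a test. The other receptors were named with results of the same arrays known, and their differences are descriptions too.

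RNA came from the liver of male C57BL/6J mice, and 8 samples were hybridised to whole-transcript arrays. Of these, 4 were labelled wild type, and the treatment note calls the wild type animals littermates of the knock-in. The other 4 were labelled TM6SF2 E167K knock in, meaning that the mice carried in Tm6sf2 the amino acid change E167K known from human fatty liver. All 8 shared sex, strain and tissue. The labels state neither the age of the mice nor how many copies of the gene were altered. The diet is not settled, because feeding in the series text was high in fat and lasted 20 weeks, whereas the sample notes name a sucrose diet free of fat, or chow, for 14 weeks. The labels do not state that each array is a separate animal, so the errors describe the spread between these samples, which may be technical in part. In whole liver RNA, fewer cells of a type and less RNA per cell cannot be told apart.

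Values were log2 expression, so a difference of 1 is a doubling. Array medians ran from 3.73 to 3.80, and any 2 arrays correlated at 0.973 to 0.980 over all 41345 probe sets. Tm6sf2 averaged 9.72 ± 0.22 for wild type and 9.66 ± 0.27 for knock-in arrays (SD, n = 4 each), and since the knock-in is a coding change this level does not check the labels. Albumin, the defining hepatocyte product, was at 13.6 in both groups. A probe set's level depends on its probes, so levels were compared between arrays and never between genes.

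Many cytokine receptors work as paired chains. IL-17RB joins IL-17RA to bind interleukin-25 (IL-17E) and also binds IL-17B, while IL-17RA with IL-17RC binds IL-17A and IL-17F; these receptors signal through the adaptor Act1 (gene Traf3ip2) and TRAF proteins. IL-1R1 binds interleukin-1 and recruits the shared chain IL-1RAP, IL-6R and the LIF receptor both signal through gp130 (gene Il6st) to STAT3, IL-4R alpha signals to STAT6, and TNFR1 (gene Tnfrsf1a) binds tumour necrosis factor. In hepatocytes, interleukin-6 and interleukin-1 are known for inducing the acute phase proteins of the blood.

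The promoter windows of the 3 members whose groups did not overlap are printed here. Non-overlap served only to choose them, and 7.16% of all tested genes share it. In the Il17rb window a neighbouring gene also starts. The windows are RefSeq's, on GRCm38.p6, from 250 bases before to 50 bases after an annotated start, and 9 of the 10 members had at least 1. In Il17rb, capitals mark the 203 bases that also lie in the first of the 3 annotated windows of Chdh. That Chdh start lies on the other strand 104 bases away, and transcription from it runs in the opposite direction. In Il1r1, which has 2 annotated starts in the table, and in Il6st, capitals mark matches to the motifs searched.
Il17rb, chr14:30008847-30009146, minus strand: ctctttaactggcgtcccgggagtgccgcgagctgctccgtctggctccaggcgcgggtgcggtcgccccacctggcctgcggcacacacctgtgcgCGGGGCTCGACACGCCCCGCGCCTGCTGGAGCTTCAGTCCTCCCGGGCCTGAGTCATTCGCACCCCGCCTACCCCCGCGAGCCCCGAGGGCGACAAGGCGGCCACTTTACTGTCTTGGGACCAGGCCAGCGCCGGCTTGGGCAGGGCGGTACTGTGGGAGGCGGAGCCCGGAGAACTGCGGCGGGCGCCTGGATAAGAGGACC
Il1r1 upstream start, chr1:40224830-40225129, plus strand: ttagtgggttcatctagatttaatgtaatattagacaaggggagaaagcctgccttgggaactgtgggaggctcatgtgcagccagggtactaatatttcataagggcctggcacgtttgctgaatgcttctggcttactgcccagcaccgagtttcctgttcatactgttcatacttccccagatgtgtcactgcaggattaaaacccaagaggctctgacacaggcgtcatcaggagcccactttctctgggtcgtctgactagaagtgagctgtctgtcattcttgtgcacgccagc
Il1r1 downstream start, chr1:40266336-40266635, plus strand: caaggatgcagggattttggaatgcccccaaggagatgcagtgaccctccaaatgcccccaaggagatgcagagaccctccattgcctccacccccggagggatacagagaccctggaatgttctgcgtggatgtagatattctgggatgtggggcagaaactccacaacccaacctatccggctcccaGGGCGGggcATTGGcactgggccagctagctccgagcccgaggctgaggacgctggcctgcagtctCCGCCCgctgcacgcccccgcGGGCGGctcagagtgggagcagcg
Il6st, chr13:112463820-112464119, plus strand: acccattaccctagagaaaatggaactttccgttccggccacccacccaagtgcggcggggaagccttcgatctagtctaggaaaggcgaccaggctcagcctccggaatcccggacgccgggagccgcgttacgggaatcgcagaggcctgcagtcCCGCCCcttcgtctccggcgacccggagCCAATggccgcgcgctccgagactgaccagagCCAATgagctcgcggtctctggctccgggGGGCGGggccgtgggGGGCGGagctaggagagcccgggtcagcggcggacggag
The Il17rb window held 72.0% G and C and 32 CG dinucleotides, more than 90.5% of the 32851 windows of 300 bases, whose medians were 52.7% and 7. The Il6st window was alike in this, with 33 CG dinucleotides, while the upstream Il1r1 window held 5 and the downstream one 14. Motifs were searched on both strands by their exact letters. The GC box GGGCGG was found once in the Il17rb window, 3 times in the downstream Il1r1 window and 3 times in the Il6st window, and it occurred in 35.7% of all windows. The CCAAT box CCAAT, present in 37.4% of windows, matched once in the downstream Il1r1 window, 2 times in the Il6st window and nowhere in that of Il17rb. The letters TATAAA (13.6% of windows), the STAT motif TTCNNNGAA (8.30%), the E-box CACGTG (7.15%) and the C/EBP motif TTGCGCAA (0.183%) were in none of these 4 windows. A match is a run of letters, not a measured binding site.

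Among the IL-17 receptors, Il17rb was lower in the knock-in liver, while the intervals of Il17ra and Il17rc held 0. Il17rb (probe set 17304338) read 7.09, 7.11, 7.28 and 7.24 in wild type replicates 1 to 4 and 6.62, 6.55, 6.55 and 6.53 in knock-in replicates 1 to 4. Every knock-in array lay below every wild type array, with a gap of 0.46 between the groups, and the knock-in arrays lay close together. The means were 7.18 ± 0.09 and 6.56 ± 0.04 (SD, n = 4 each), a change of -0.62 (SE 0.08, 95% interval -0.80 to -0.44), or 1.53-fold lower. The spread within groups was small for this gene: its pooled SD was 0.07, against a median of 0.19 over tested genes, and 4.72% of tested genes had a smaller one.

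The partner chain Il17ra (probe set 17462351) read 6.48, 6.47, 6.66 and 7.09 in wild type and 6.59, 6.93, 6.42 and 6.91 in knock-in arrays. The groups overlapped, and the change was 0.04 (SE 0.17, 95% interval -0.35 to 0.42), so these arrays bound a difference in Il17ra only loosely. Il17rc (probe set 17461703), which pairs with IL-17RA for IL-17A and IL-17F, read 7.93, 7.94, 8.02 and 7.89 in wild type and 8.15, 8.06, 7.90 and 7.86 in knock-in arrays. Its groups also overlapped, and its change was 0.05 (SE 0.09, 95% interval -0.16 to 0.25). The signs of both small changes turned on leaving out single arrays, with ranges of -0.03 to 0.18 for Il17ra and -0.0045 to 0.09 for Il17rc.

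**Figure D1:**
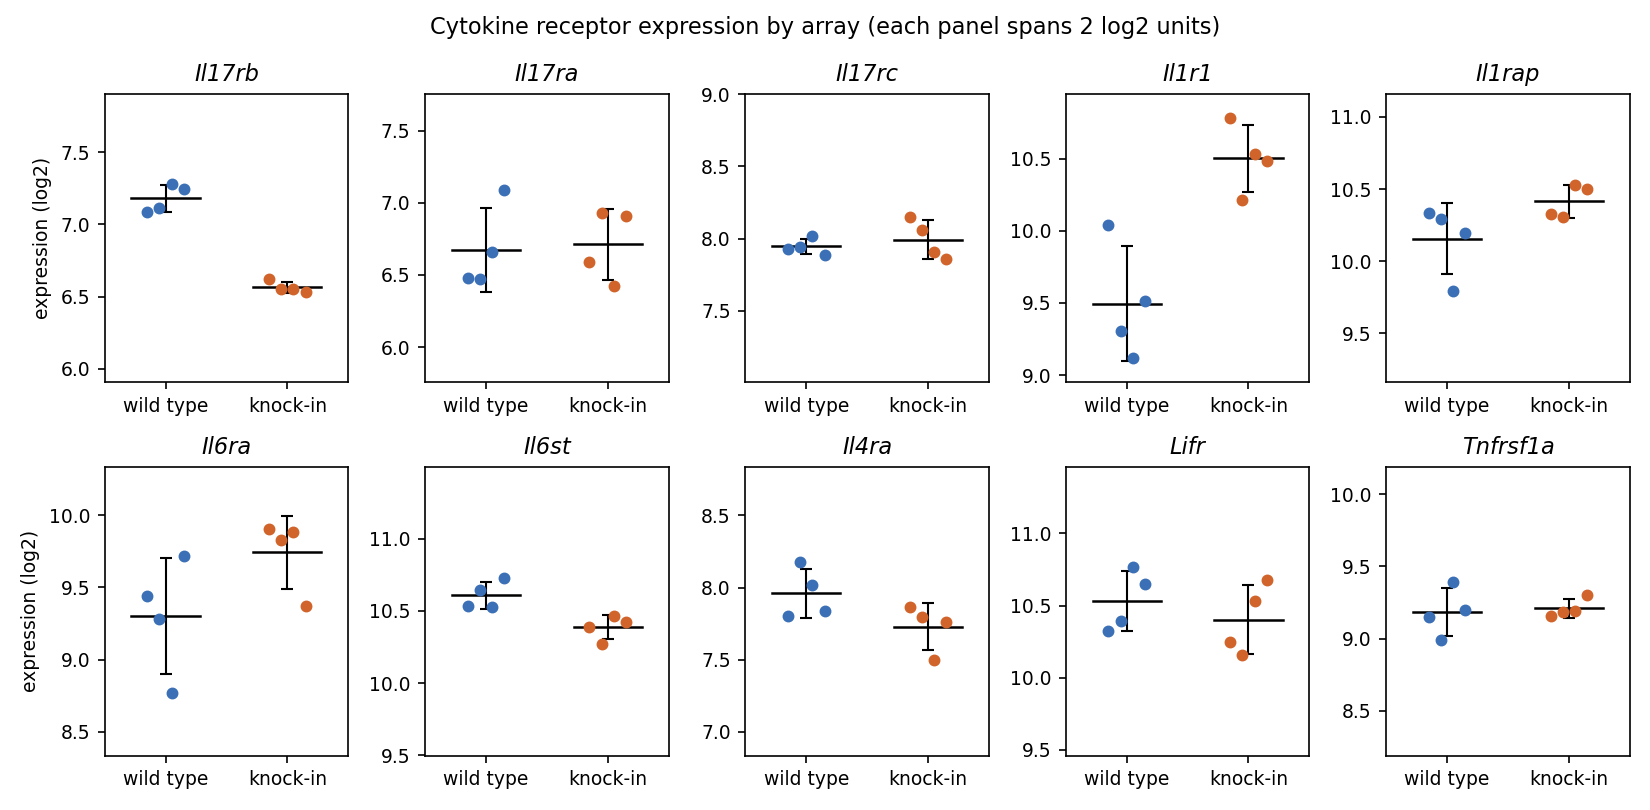
Log2 expression of the 10 receptor genes in 4 wild type (blue) and 4 knock-in (orange) arrays; points are arrays, long bars are group means and error bars are 1 SD, and each panel has its own axis spanning 2 log2 units. Il17rb and Il6st lie lower and Il1r1 higher in every knock-in array than in any wild type array, and the other 7 genes overlap.

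The ligand-binding IL-1 receptor had the largest difference of the 10 genes. Il1r1 (probe set 17212185) read 10.04, 9.30, 9.12 and 9.51 in wild type and 10.78, 10.22, 10.53 and 10.48 in knock-in arrays. All 4 knock-in arrays lay above all 4 wild type arrays, though wild type replicate 1 came within 0.18 of the lowest of them. The means were 9.50 ± 0.40 and 10.50 ± 0.23 (SD, n = 4 each), a change of 1.01 (SE 0.20, 95% interval 0.55 to 1.46), or 2.01-fold higher. Its pooled SD was 0.32, and 82.8% of tested genes had a smaller one.

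The shared chain Il1rap had 3 probe sets. The brightest (17329494) read 10.33, 10.29, 9.80 and 10.19 in wild type and 10.33, 10.30, 10.53 and 10.50 in knock-in arrays, with overlapping groups and a change of 0.26 (SE 0.13, 95% interval -0.04 to 0.56). Wild type replicate 3 was the low array of its group. The second probe set (17324522) differed by 0.02 between group means, 8.86 ± 0.13 and 8.88 ± 0.12, and the third (17324542) lay below the dim limit on all 8 arrays. Which Il1rap transcripts each probe set measures is not stated in the labels.

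In the IL-6 and LIF receptors, the mean of the interleukin-6-binding chain was higher and that of the signalling chain lower. Il6ra (probe set 17407138) read 9.44, 9.28, 8.77 and 9.72 in wild type and 9.90, 9.83, 9.88 and 9.37 in knock-in arrays. Knock-in replicates 1 to 3 lay above all wild type arrays, and replicate 4 lay within the wild type range, 0.46 below its nearest fellow. The change was 0.44 (SE 0.21, 95% interval -0.02 to 0.91), and it was 0.57 without knock-in replicate 4 and 0.26 without wild type replicate 3, the lowest array of its group.

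Il6st (probe set 17289889), the gp130 chain shared by the IL-6, LIF and related receptors, read 10.53, 10.64, 10.53 and 10.73 in wild type and 10.39, 10.27, 10.47 and 10.42 in knock-in arrays. Its groups did not overlap, but the gap was 0.06 and the change -0.22 (SE 0.09, 95% interval -0.42 to -0.03), a size that 24.3% of tested genes exceeded. Lifr (probe set 17310044), the LIF-binding chain, read 10.32, 10.39, 10.77 and 10.65 in wild type and 10.25, 10.15, 10.53 and 10.67 in knock-in arrays. In Lifr the groups overlapped across most of their range, with a change of -0.13 (SE 0.15, 95% interval -0.46 to 0.21).

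Il4ra (probe set 17482943), the chain common to the interleukin-4 and interleukin-13 receptors, read 7.81, 8.18, 8.02 and 7.84 in wild type and 7.86, 7.80, 7.50 and 7.76 in knock-in arrays. Only knock-in replicate 1 reached the wild type range, and the change was -0.23 (SE 0.12, 95% interval -0.50 to 0.04). Tnfrsf1a (probe set 17463184) read 9.15, 8.99, 9.39 and 9.20 in wild type and 9.16, 9.19, 9.19 and 9.30 in knock-in arrays. Its knock-in arrays lay wholly inside the wild type range, with a change of 0.03 (SE 0.10, 95% interval -0.20 to 0.25).

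**Figure D2:**
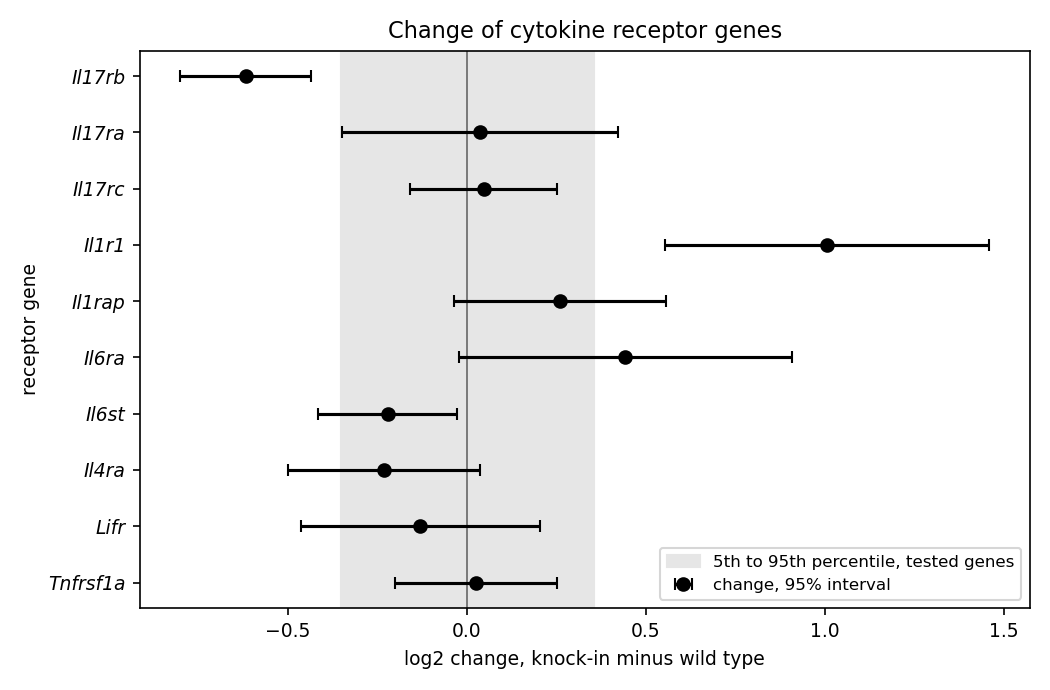
Change of each receptor gene, log2 knock-in minus wild type, with its 95% interval from the fit across all genes (4 arrays per group); the grey band holds the changes of tested genes from the 5th percentile, -0.35, to the 95th, 0.35. Il17rb at -0.62, Il1r1 at 1.01 and Il6ra at 0.44 lie outside the band, and the intervals of Il17rb, Il1r1 and Il6st leave out 0.

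Across the 10 receptors there was no common direction. Means were higher in the knock-in for 6 and lower for 4, with a median change of 0.03, beside 51.1% higher and a median of 0.0046 over all tested genes. The groups did not overlap in 1 gene upward and 2 downward; over all tested genes 7.16% did not overlap, 3.96% upward and 3.2% downward. By limma's moderated test with Benjamini-Hochberg adjustment, 1 of the 10 was past the threshold, Il17rb, which was lower; 0.0669% of all tested genes passed, and 0.0446% passed as lower. Nothing follows from that count, because the same contrast put Il17rb in the group. It stood just inside the threshold, at an adjusted p of 0.0494 by limma, and the nearest receptor outside it was Il1r1 at 0.119. With any 1 of the 8 arrays left out Il17rb no longer passed, at adjusted p of 0.0656 to 0.162, while its change stayed at -0.65 to -0.58.

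Il17rb and Chdh were both lower in every knock-in array than in any wild type array, as were 3.2% of all tested genes. On chromosome 14, 1 of the 3 annotated starts of Chdh lies next to that of Il17rb, on the opposite strand. Which Chdh start its probe set reflects is not stated in the labels. Chdh encodes choline dehydrogenase, the mitochondrial enzyme that starts the conversion of choline to betaine. It read 8.28, 8.20, 8.18 and 8.30 in wild type and 8.11, 8.05, 7.98 and 7.998 in knock-in arrays. Its groups did not overlap, and the change of -0.21 (SE 0.08, 95% interval -0.38 to -0.04) was smaller than that of Il17rb and did not pass over all genes (limma unadjusted p = 0.0235, adjusted p = 0.346, and adjusted p of 0.237 to 0.546 over 15 alternatives). In size the Chdh change was below that of Il6st, -0.22, which 24.3% of tested genes exceeded. Whether the changes of Il17rb and Chdh are linked was not tested.

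The neighbour on the other side was higher in mean. Actr8, a subunit of the INO80 chromatin remodeller, read 8.01, 7.87, 8.03 and 8.05 in wild type and 8.08, 8.27, 8.001 and 8.26 in knock-in arrays, with overlapping groups and a change of 0.16 (SE 0.09, limma adjusted p = 0.567). Of the 5 protein-coding neighbours on each side in GRCm38.p6, 8 were tested and 0 passed by limma. At a limma unadjusted p under 0.05, which 11.3% of all tested genes reached, 1 was lower and 1 higher. Besides Chdh this was Lrtm1, a leucine-rich transmembrane protein, which was at 1.47 (SE 0.45, limma adjusted p = 0.287). Lrtm1 read 7.11, 6.60, 5.27 and 4.84 in wild type and 7.64, 7.29, 7.34 and 7.43 in knock-in arrays, so its wild type arrays were spread over more than 2 log2 units. Selenok, a selenoprotein of the endoplasmic reticulum, was at 0.20 (SE 0.11, limma adjusted p = 0.525), and Cacna1d, a subunit of a voltage-gated calcium channel, at 0.36 (SE 0.24, limma adjusted p = 0.614). The median change of the 8 was 0.15.

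**Figure D3:**
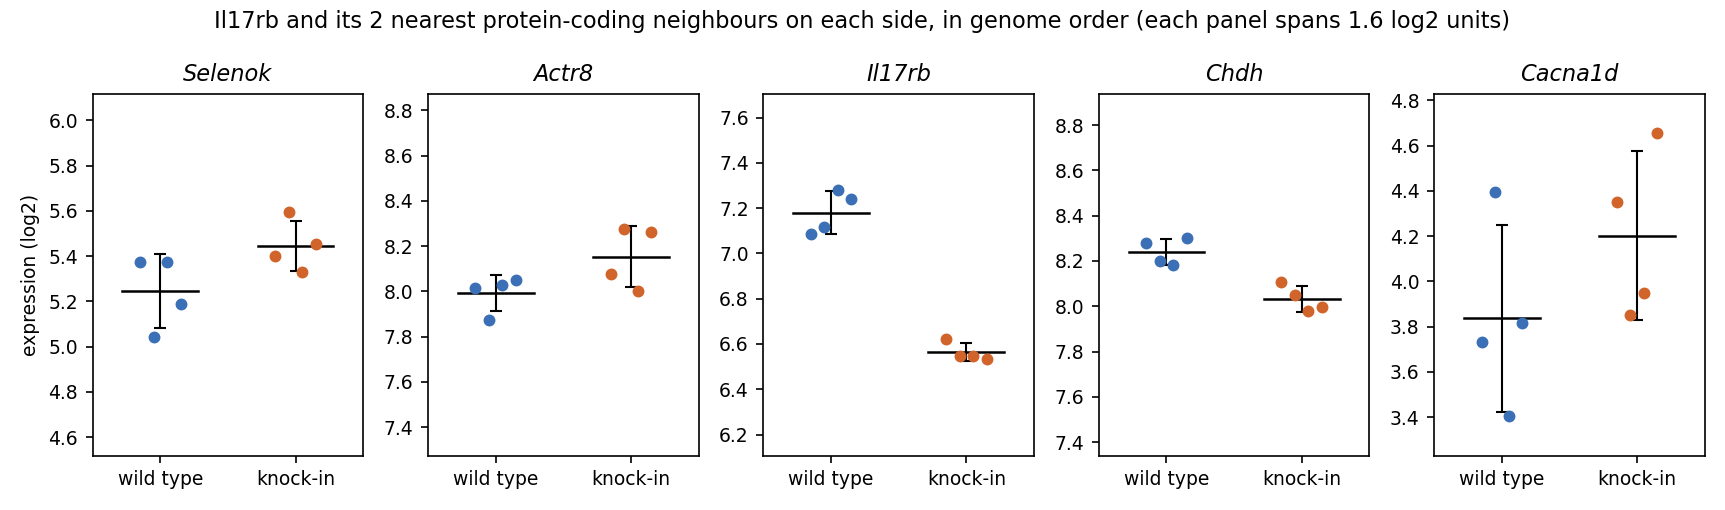
Log2 expression of Il17rb and its 2 nearest protein-coding neighbours on each side, in genome order, in 4 wild type (blue) and 4 knock-in (orange) arrays; points are arrays, long bars are means, error bars are 1 SD, and all panels span the same log2 range. Il17rb (change -0.62) and Chdh (-0.21) lie lower in all 4 knock-in arrays, and Actr8 (0.16), Selenok (0.20) and Cacna1d (0.36) overlap between groups.

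The genes whose values ran most like those of Il17rb over the 8 arrays, by the root mean square difference after centring each gene on its mean, were Ralgps2 at 0.09, Mfsd6 and Tbc1d31 at 0.11, and Reps1 and Nlrp12 at 0.12. The median over 12594 genes compared was 0.37. Each of the 5 had all knock-in arrays below all wild type arrays, with changes of -0.56, -0.43, -0.58, -0.42 and -0.75. They were chosen for this likeness, so these changes are descriptions.

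The ligands of the IL-17 receptors were mostly near or under the dim limit, the 40th percentile of each array. Of 6 ligand genes, Il17a, Il17b, Il17c and Il17f were too dim to be tested. Il25, the ligand of IL-17RB, was tested on 5 arrays above the limit and averaged 3.62 ± 0.51 for wild type and 3.73 ± 0.21 for knock-in arrays (SD, n = 4 each), and Il17d was at 3.65 ± 0.17 and 3.64 ± 0.18. By limma 0 of these 2 passed, and 0 had an unadjusted p under 0.05, beside 0.0669% and 11.3% of all tested genes. Of the remaining IL-17 receptors Il17re was too dim, and Il17rd, whose product restrains growth factor signals, was at -0.45 (SE 0.24, limma adjusted p = 0.516). Il17rd also lay near the dim limit, with a knock-in mean of 3.53 and 6 of the 8 arrays above the limit.

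Among IL-17 signal carriers, 23 of 26 listed genes were tested, and by limma 0 passed, beside 0.0669% of all tested genes. At an unadjusted p under 0.05, 1 was higher and 1 lower, beside 11.3% of all tested genes in either direction. The adaptor gene Traf3ip2 was at 0.10 and Traf6, the ubiquitin ligase it recruits, at 0.08. Elavl1, an RNA-binding protein that stabilises inflammatory transcripts, was at -0.27 (SE 0.09, limma adjusted p = 0.333) with all knock-in arrays below the wild type arrays. Tab1, a partner of the kinase TAK1, was at 0.36 (SE 0.14, limma adjusted p = 0.383), and Zc3h12a, a nuclease that degrades cytokine transcripts, at 0.25 (SE 0.11, limma adjusted p = 0.450). The list's median change was 0.01.

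In the IL-1 family, the cytokine Il1b lay lower where its receptor Il1r1 lay higher. Il1b read 7.27, 7.75, 7.79 and 6.96 in wild type and 5.20, 5.88, 5.68 and 6.22 in knock-in arrays, without overlap, and was at -1.70 (SE 0.25, limma adjusted p = 0.0552). That value lay just outside the threshold, and it ranged from 0.0151 to 0.173 over 15 alternatives, of which 4 put it inside. Sigirr, an inhibitory receptor of the IL-1 family, was at 0.47 (SE 0.14, limma adjusted p = 0.285) with all knock-in arrays above the wild type arrays, and the cytokine Il18 was at 0.46 (SE 0.18, limma adjusted p = 0.363). Of 15 tested genes 0 passed by limma, beside 0.0669% of all tested genes, and the median change was -0.01. An unadjusted p under 0.05 was found for 2 higher and 1 lower, beside 11.3% of all tested genes in either direction. The antagonist Il1rn was at -0.19, and the adaptor Myd88 at -0.22.

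In the IL-6 and LIF family, Il6, Il11, Lif and Osm themselves were too dim to be tested. Of 18 tested genes, 14 had a lower mean in the knock-in, with a median of -0.07, while 51.1% of all tested genes were higher in mean. By limma 0 of the 18 passed. At an unadjusted p under 0.05, reached by 11.3% of all tested genes, 0 were higher and 2 lower. Those 2 were Socs1 and Il27. Socs1, a feedback inhibitor of cytokine signals, was at -0.49 (SE 0.15, limma adjusted p = 0.294). Its knock-in mean of 3.48 lay at the dim limit, which 6 of the 8 arrays exceeded. The cytokine Il27 was at -0.53 (SE 0.22, limma adjusted p = 0.396), and at -0.34 without wild type replicate 2. Ctf1, a cytokine that uses gp130 and the LIF receptor, was at 0.27 (SE 0.13, limma adjusted p = 0.469). Stat3, the factor gp130 activates, was at -0.06, and its feedback inhibitor Socs3 at -0.32. The lowest point of the list was the related inhibitor Socs2, at -0.85 (SE 0.65, limma adjusted p = 0.680). Osmr, the partner of gp130 for oncostatin M, was at -0.08.

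For the remaining receptors, Il4 and Il13 were too dim to be tested. Il13ra1, a partner chain of IL-4R alpha, was at 0.21 (SE 0.11, limma adjusted p = 0.502), and Stat6 was at -0.04 (SE 0.10, limma adjusted p = 0.919). Of 14 tested TNF family genes, 0 passed by limma and 0 had an unadjusted p under 0.05, beside 0.0669% and 11.3% of all tested genes. Their median change was 0.08. The smallest p belonged to the cytokine Ltb, at -0.33 (SE 0.17, limma adjusted p = 0.515), to Tradd, the adaptor that binds TNFR1, at 0.24 (SE 0.14, limma adjusted p = 0.563), and to Tnfrsf1b, the second TNF receptor, at 0.30 (SE 0.19, limma adjusted p = 0.600).

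Of 23 other cytokine receptors tested, 0 passed by limma, beside 0.0669% of all tested genes. An unadjusted p under 0.05 was found for 1 higher and 1 lower, beside 11.3% of all tested genes in either direction. Lepr, the leptin receptor, read 9.66, 9.48, 10.21 and 10.34 in wild type and 8.91, 9.37, 9.15 and 8.95 in knock-in arrays. Its groups did not overlap, and it was at -0.83 (SE 0.20, limma adjusted p = 0.191). Il7r was at 0.76 (SE 0.24, limma adjusted p = 0.294) and Crlf2, the receptor for thymic stromal lymphopoietin, at 0.26 (SE 0.16, limma adjusted p = 0.570). The median of the 23 was 0.03, and the interferon receptor genes Ifnar1, Ifnar2, Ifngr1 and Ifngr2 were at -0.08 to 0.07.

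Genes listed as cytokine targets were higher in mean in 17 of 20 tested, beside 51.1% of all tested genes. Whole liver RNA does not show which cells express them. Their median change was 0.12, but 0 passed by limma. Of the 20, 6 higher and 0 lower had an unadjusted p under 0.05, beside 11.3% of all tested genes in either direction. Saa3, an acute phase apolipoprotein, read 6.42, 5.80, 5.92 and 7.01 in wild type and 7.76, 7.18, 6.91 and 7.59 in knock-in arrays, and was at 1.07 (SE 0.28, limma adjusted p = 0.219). Orm2, an acute phase plasma glycoprotein, was at 1.07 (SE 0.30, limma adjusted p = 0.253), and the chemokine Ccl20 at 0.35 (SE 0.10, limma adjusted p = 0.266) close to the dim limit. Saa2, at 1.42 (SE 0.49, limma adjusted p = 0.333), had the largest change of the list. Lcn2 at 1.01 (SE 0.36, limma adjusted p = 0.338) and Apcs at 0.36 (SE 0.14, limma adjusted p = 0.383) complete those 6. Of the others, Hp, Fgb, Fgg and Itih4 were at 0.01 to 0.02. Hamp was lowest, at -0.10, with all knock-in arrays below the wild type arrays. The acute phase genes of the list were already known to lie higher on these arrays when the list was written, so the list is no independent evidence of a direction.

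Over all 10 lists, 126 of 168 listed genes were tested. By limma 0 passed, and 17, or 13.5%, had an unadjusted p under 0.05, against 11.3% of all tested genes.

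**Figure D4:**
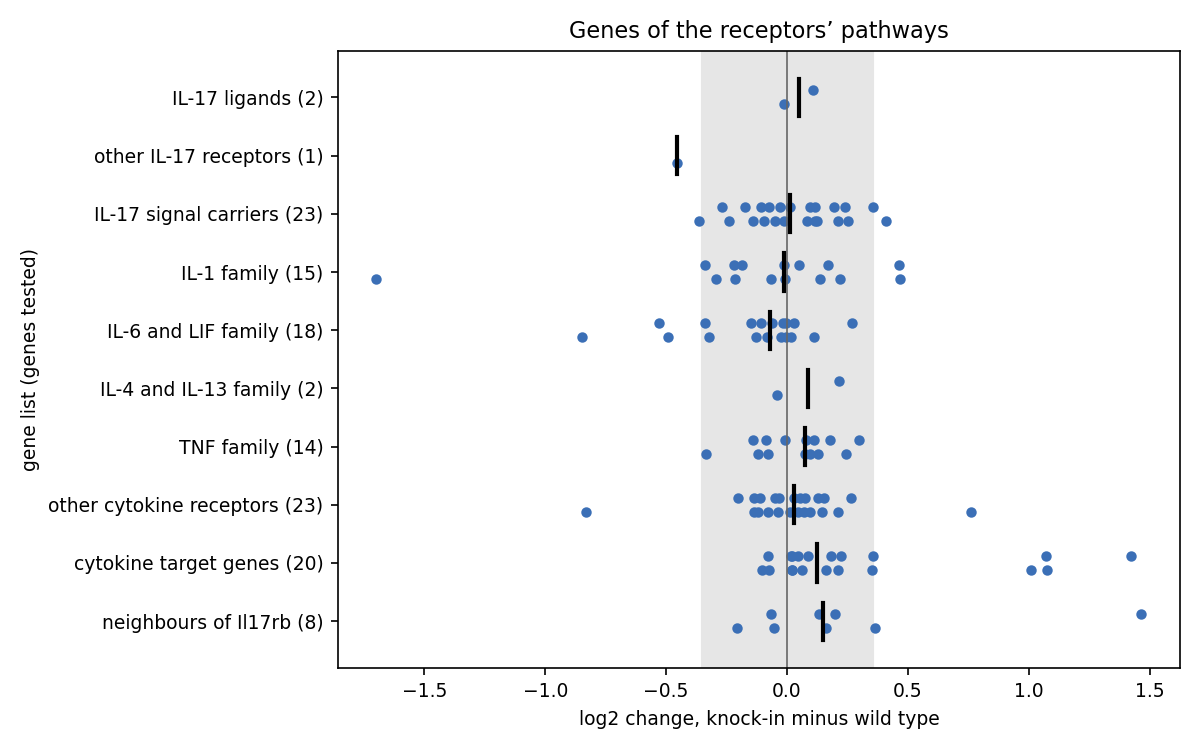
Change of each tested gene of the 10 pathway lists (points; log2 knock-in minus wild type, 4 arrays per group), with the median of each list as a black bar and the number of genes tested in brackets; the grey band is the 5th to 95th percentile of all tested genes, -0.35 to 0.35. List medians lie from -0.07 to 0.15 except for the single tested gene among other IL-17 receptors, at -0.45 and near the dim limit. Il1b at -1.70 is the lowest point.

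Marker means of the cells a liver holds did not separate the groups. Of 58 tested markers in 8 lists 0 passed by limma, beside 0.0669% of all tested genes, so that count says little. An unadjusted p under 0.05 by limma was reached by 11.3% of all tested genes. Here 1 marker was higher in each of the T and NK cell, B and plasma cell, and sinusoidal endothelial lists. In the hepatocyte list 1 was lower. In 0 of the 8 lists did the arrays' marker means part between groups. These means were taken over all measured markers, dim ones included. For T, NK and innate lymphoid cells, among which IL-17RB is known, 8 of 13 measured markers were tested, wild type arrays had marker means of 4.29 to 4.62 and knock-in arrays of 4.40 to 4.62, and Cd2, Klrb1c and Klrg1 were dim on all arrays. Il7r, at 0.76 as given above, belongs to that list as well and is its 1 marker with an unadjusted p under 0.05. For cholangiocytes 4 of 7 measured markers were tested, and Cldn7 and Cftr were dim on all arrays. Wild type arrays had means of 3.74 to 4.07 against 3.70 to 4.19 for the knock-in. These lie near the dim limits of 3.46 to 3.50, where a change would be hard to see. Kupffer cell markers had means of 8.23 to 9.02 and of 8.18 to 8.79, and hepatocyte markers were at 12.2 on all 8 arrays.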

How the data were processed

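Liver RNA of 4 wild type and 4 knock-in samples was measured on Affymetrix whole-transcript arrays. The deposited table holds log2 expression per probe set, normalized across arrays by the authors; the submitters' processing notes name RMA and limma, while tool versions, annotation version and build were not stated there. RMA equalises array distributions, so a shift shared by most genes would be removed, and small values are compressed.

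Of 41345 probe sets, 23521 had a single gene symbol, 1814 had several and 16010 had none listed. Symbols were checked by Entrez identifier against RefSeq GRCm38.p6 (23328 matched, 193 not, 0 changed). The brightest probe set stood for each of 22180 genes. A gene was tested where at least 4 of 8 arrays exceeded the array's dim limit, its 40th percentile over probe sets with a single symbol. The 2 genotypes were compared using limma 3.58.1 under R 4.3.3 (genotype only, default eBayes, two-sided, Benjamini-Hochberg over 13449 genes, threshold 0.05). The code was tested on simulated data. Arrays have no read depth, and their number limits precision.

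Members and lists were chosen with earlier results of these data known. Named genes were the members, up to 3 genes per list by smallest unadjusted p, the nearest neighbours of Il17rb and the 5 genes most like it, without predicted genes; others named as list examples were chosen after their values were seen. Alternatives changed the filter, normalization, prior, array weights, probe set choice, replicate block and each array in turn. Detection calls and protein sequences were not used here. Same-numbered arrays of both groups correlated at -0.11 to 0.10 in their deviations, and the numbers were not taken as pairs. So few arrays cannot exclude pairing.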

Additional observations from a re-analysis of the deposited data

Results flagged for a closer look

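Among the 42 genes examined (the members and named genes), 2 of 84 groups of 4 arrays held an array set far apart from the rest, and chance alone marks about 1 in 20. Il6ra in knock-in replicate 4 read 9.37, where the other knock-in arrays read 9.83 to 9.90. Il27 in wild type replicate 2 read 5.72, where the other wild type arrays read 4.90 to 5.04.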

How the results depend on the processing

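The change of Il17rb stayed between -0.65 and -0.58 and that of Il1r1 between 0.88 and 1.19 over 15 alternatives. Signs of Il17ra, Il17rc and Tnfrsf1a, all near 0, turned in some, Il17ra also with array weights, and no member moved by more than its SD. Over the whole array 9 genes passed; this became 2 with no filter, 32 with the stricter filter, 73 with a trended and robust prior, 25 with array weights, 24 with the mean of probe sets and 2 with the replicate block, and 1 to 12 on leaving out single arrays. Il17rb passed in 5 of 7 alternatives that kept all arrays; members past the threshold fell to 0 with no filter (adjusted p = 0.0903 by limma), with the replicate block (0.205) and on leaving out any array. Pathway genes past the threshold numbered 1, Il1b, with 4 settings (stricter filter, averaged probe sets, array weights, trended and robust prior), and 0 in the other 11. The share of genes whose groups did not overlap was 9.66% to 12.1% on leaving out single arrays, since fewer arrays overlap less often. The arrays' deviations showed no pairing by number, and only 1 of 4 wild type arrays correlated best with its own number. With 4 arrays per group this check cannot exclude pairing. Changes of dim genes such as Il25 and Il17d are compressed.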
